A study of Mus musculus with 10 samples.

Results

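A set of 9 lectin-like receptor and ligand genes of mouse chromosome 6, *Klrg1*, *Klrb1b*, *Klrb1c*, *Klrb1f*, *Clec2d*, *Klrd1*, *Klrk1*, *Klrc1*, and *Klre1*, were examined for chromatin accessibility in group 2 innate lymphoid cells (ILC2s) of 5 tissues. A region of the merged ATAC-seq table was assigned to a gene when its centre lay inside the gene or when its nearest RefSeq transcription start site (TSS) was at that gene. By this rule 29 of 50039 regions belonged to the 9 genes, with 8 at *Klrg1*, 5 at *Klrb1f*, 3 each at *Klrb1b*, *Klrb1c*, and *Klre1*, 2 each at *Clec2d*, *Klrd1*, and *Klrk1*, and 1 at *Klrc1*. All 29 had at least 1 count and were among the 49981 regions tested. The assay, ATAC-seq, uses a transposase that cuts open chromatin, so the reads at a region measure its accessibility and not the expression of a gene.

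The cells came from the large and small intestines (LI and SI), lung, pancreas, and bone marrow (BM) of wild-type C57BL/6 males at 6 weeks of age, and each tissue gave 2 libraries. A library was made from 50000 sorted cells, pooled from 10 mice for either intestine and from 16 mice for any other tissue, so a replicate is a pool and not a single animal. BM cells were sorted as Lin–ST2+CD25+, those of LI, lung, and pancreas by CD45, CD127, ST2, and CD25, and those of SI by CD45, CD127, Thy1, and KLRG1. The protein product of *Klrg1* was therefore part of the SI gate alone, the BM sort was run on another sorter, and the antibodies named for lineage exclusion (CD3, B220, CD11b, CD11c, and FceRI) include none against the receptors described here. Gate and tissue cannot be told apart for BM and SI, nor sorter and tissue for BM. LI, lung, and pancreas shared a gate and a sorter.

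Lectin-like receptors of this family were first described on natural killer (NK) cells, and most of their genes lie together in a stretch of chromosome 6 called the NK gene complex. Inhibitory members carry a cytoplasmic motif that recruits phosphatases, whereas activating members signal through small adaptor proteins, so that the balance between them sets the response to cells carrying their ligands. ILC2s are tissue-resident lymphocytes that make type 2 cytokines, and KLRG1, which binds cadherins, is widely used as one of their surface markers.

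*Klrg1* lies apart from the other genes, at chr6:122270596-122282833 on the minus strand of GRCm38 (mm10). *Klrb1c* (chr6:128778485-128788641, minus strand) and *Klrb1b* (chr6:128813706-128826315, minus strand) come next along the chromosome, followed by *Klrb1f* (chr6:129045837-129059724, plus strand) and *Clec2d* (chr6:129180615-129186535, plus strand). *Klre1* (chr6:129559365-129585828, plus strand), *Klrd1* (chr6:129588092-129598775, plus strand), *Klrk1* (chr6:129610323-129623903, minus strand), and *Klrc1* (chr6:129666015-129682852, minus strand) are close neighbours. Of the 29 regions, 6 were promoter regions, with a centre at most 1000 bp before or 100 bp after a TSS of one of the 9 genes. *Klrg1* had 2 of them, and *Klrb1b*, *Klrb1f*, *Clec2d*, and *Klrk1* had 1 each. No region lay at the promoter of *Klrb1c*, *Klrd1*, *Klrc1*, or *Klre1* by this definition, and the 3 regions of *Klrb1c* all lay outside the gene, at 21678 to 28055 bp downstream of its TSS. The upstream *Klrd1* region lay inside the neighbouring gene *Klre1* and is counted at *Klrd1* because that TSS is the nearest.

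The sequences of 5 windows of 200 bases are given, each from a region described below that differed over the tissues. Some regions with a smaller p than the *Klrb1b* one are not shown. The windows were read from GRCm38 in the direction of the gene, and capitals mark matches on either strand to any of 7 short motifs. The letters were AGATAA for GATA factors, TGTGGT for RUNX factors, GGAAGT for ETS factors, TGANTCA for AP-1 proteins, AGGTGTGA for T-box factors, AGGTCA for ROR receptors, and GCGTG for the core of the AHR motif. The first window ends at the base before the *Klrg1* TSS, and the others are centred on their region.
*Klrg1*, upstream of the TSS, chr6:122282834-122283033, minus strand: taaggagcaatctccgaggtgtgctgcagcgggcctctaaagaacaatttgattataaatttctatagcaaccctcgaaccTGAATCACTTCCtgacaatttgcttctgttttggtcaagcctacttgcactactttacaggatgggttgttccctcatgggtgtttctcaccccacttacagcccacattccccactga
*Klrg1*, region 909 bp upstream, chr6:122283642-122283841, minus strand: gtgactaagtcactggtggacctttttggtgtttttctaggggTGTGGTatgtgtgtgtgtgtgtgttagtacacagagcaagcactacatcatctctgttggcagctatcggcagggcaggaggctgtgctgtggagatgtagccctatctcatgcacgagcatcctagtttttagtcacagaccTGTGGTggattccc
*Klrc1*, region 1602 bp upstream, chr6:129680475-129680674, minus strand: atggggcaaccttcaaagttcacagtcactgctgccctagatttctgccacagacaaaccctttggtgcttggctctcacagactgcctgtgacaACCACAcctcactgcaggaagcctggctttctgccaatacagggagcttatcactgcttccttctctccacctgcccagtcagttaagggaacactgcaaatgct
*Klrd1*, region 8034 bp downstream, chr6:129599744-129599943, plus strand: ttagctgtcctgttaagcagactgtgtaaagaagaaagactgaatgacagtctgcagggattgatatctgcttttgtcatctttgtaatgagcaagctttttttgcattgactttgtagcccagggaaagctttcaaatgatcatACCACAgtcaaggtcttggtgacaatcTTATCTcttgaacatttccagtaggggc
*Klrb1b*, region 479 bp upstream, chr6:128826694-128826893, minus strand: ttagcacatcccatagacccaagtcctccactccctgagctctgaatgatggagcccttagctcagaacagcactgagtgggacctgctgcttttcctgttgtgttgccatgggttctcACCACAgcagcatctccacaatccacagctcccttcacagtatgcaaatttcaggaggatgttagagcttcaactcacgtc
The window upstream of the *Klrg1* TSS held an AP-1 and an ETS match that shared 1 base, and the window 909 bp upstream held 2 RUNX matches. The *Klrc1* and *Klrb1b* windows held 1 RUNX match each, and the *Klrd1* window held 1 RUNX and 1 GATA match. Over the central 200 bases of all regions, RUNX matches were found in 14 of the 29 windows (48.3%) and in 22.7% of all 50039. The GATA letters were in 6 windows (20.7%) against 12.7% of all, ETS in 8 (27.6%) against 20.3%, and AP-1 in 5 (17.2%) against 14.9%. T-box letters were in 1 window (3.4%) against 0.777%, the ROR letters in 3 (10.3%) against 12.6%, and the AHR core in 4 (13.8%) against 22.2%. These are matches of letters and not measured binding sites.

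Total counts per library lay between 10282987 (pancreas replicate 2) and 32797872 (lung replicate 2), and the counts at a single region of the 9 genes lay between 10 and 1897. Values below are counts scaled to library size (CPM) with edgeR's TMM factors, and log2 differences are given with their standard error. P-values come from edgeR's quasi-likelihood test over all tested regions, with Benjamini-Hochberg adjustment. The cell type label was compared with promoters of ILC2 genes. All 10 of the listed ILC2 genes, among them *Gata3*, had promoter regions, with a sum of 240.5 to 382.8 CPM per library. *Il1rl1*, which encodes ST2, was low in SI, whose gate did not use ST2. Its first promoter region held 2.84 and 3.03 CPM in SI, 5.7 and 7.4 in LI, and 13.0 to 27.0 in the other tissues. LI was thus also low there, although its gate used ST2. The second held 1.69 and 0.522 CPM in SI, 3.77 to 4.95 in BM and LI, and 9.25 to 15 in lung and pancreas.

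To ask whether accessibility at these genes differed between the tissues, each region was tested for any difference over the 5 tissues and then in each of the 10 contrasts between pairs of tissues. Of the 29 regions, 17 differed over the tissues (58.6%), where 44.2% of all regions did. With TSSs of curated transcripts alone, 44 regions belonged to the genes and 19 differed (43.2%), a share no longer above that of all regions. The median CPM of the regions was 6.96, and that of all regions 7.33. Over the 10 contrasts, 60 of 290 tests were called (20.7%), against 17% of all tests, and the median size of the log2 difference was 0.49, against 0.40 for all regions. Many of the calls were in contrasts with LI, whereas the *Klrg1* promoter regions were set apart by low values in BM. The map shows the values in every library.

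**Figure D1:**
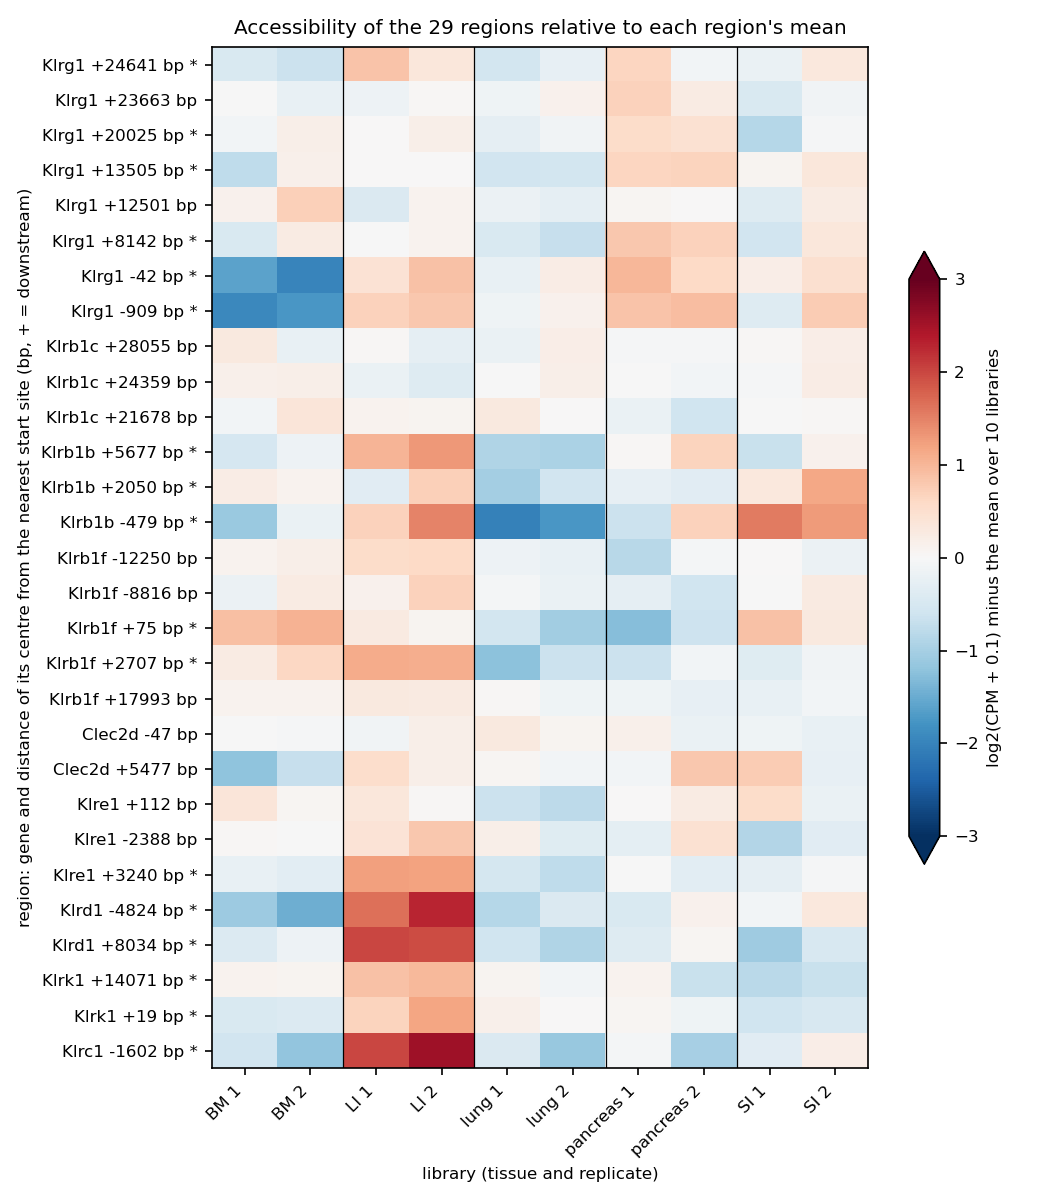
Heat map of the 29 regions (rows, by gene and distance in bp of the region centre from the nearest TSS) in the 10 libraries (columns). Colour gives log2(CPM + 0.1) minus the region's mean over the libraries, and an asterisk marks the 17 regions that differed over the tissues. Both LI columns are red in the last 6 rows, from the *Klre1* intron region at 3240 bp to *Klrc1*, both BM columns are blue at the 2 *Klrg1* promoter regions, and the *Klrb1c* rows are pale throughout.

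In the contrasts with LI, every region called in the fit of all 10 libraries by edgeR was higher in LI. LI exceeded BM at 12 regions, where 18.3% of all regions were called in that direction, and BM exceeded LI at 0 (12.6% of all). LI exceeded lung at 9 regions (8.18% of all) with 0 in the other direction (2.72%), pancreas at 6 (2.01%) with 0 in the other direction (1.25%), and SI at 8 (6.9%) with 0 in the other direction (1.53%). Of the 29 regions these are 41.4%, 31%, 20.7%, and 27.6%. At an unadjusted p under 0.05, BM exceeded LI at 3 regions, pancreas at 2, SI at 1, and lung at 0, and DESeq2 on the 10 libraries called 1 higher in BM and 0 in the others. EdgeR also called regions higher in BM than in LI in some settings, with 2 without either SI library, 1 with the loess trend removed, and 1 in the fit of 4 libraries. The count over BM fell to 7 without BM replicate 1 and that over SI to 5 without LI replicate 2. The count over pancreas was 1 and 3 without pancreas replicates 1 and 2 and 2 without LI replicate 2. Each direction of the contrasts between the other tissues held at most 5 calls, or 17.2% of the 29 regions. For pancreas over lung the share was 13.8%, against 4.2% of all. BM was higher at 2 regions and lung at 2 (7.56% and 11.5% of all), BM at 1 and pancreas at 3 (9.89% and 14.3%), and BM at 1 and SI at 5 (10.7% and 15.1%). Lung was higher than pancreas at 0 regions and pancreas than lung at 4 (1.62% and 4.2%), lung than SI at 0 and SI than lung at 3 (9.86% and 11.1%), and pancreas and SI each exceeded the other at 2 (12% and 8.45%). For lung over pancreas and over SI, 1 and 2 regions had an unadjusted p under 0.05, and DESeq2 called 0 in both. Many of these small counts changed when 1 library was left out. The 4 regions higher in pancreas than in lung became 0 without lung replicate 1, lung replicate 2, or pancreas replicate 2, 2 without pancreas replicate 1, and 7 without either SI library. Those higher in SI than in BM became 2 and 3 without BM replicates 1 and 2, and those higher in pancreas than in BM became 7 without either SI library. Pancreas exceeded SI at 0 regions without pancreas replicate 1 or SI replicate 1, at 1 without pancreas replicate 2, and at 5 without SI replicate 2. SI exceeded pancreas at 0 without pancreas replicate 1 and at 1 without BM replicate 1, BM replicate 2, or SI replicate 2, and SI exceeded lung at 5 without SI replicate 1. BM exceeded lung at 4 and pancreas at 2 without either SI library, and exceeded lung at 1 without lung replicate 1. BM exceeded SI at 0 without BM replicate 1, BM replicate 2, or SI replicate 1 and at 3 without SI replicate 2. Lung exceeded SI at 1 without either pancreas library or SI replicate 2.

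**Figure D2:**
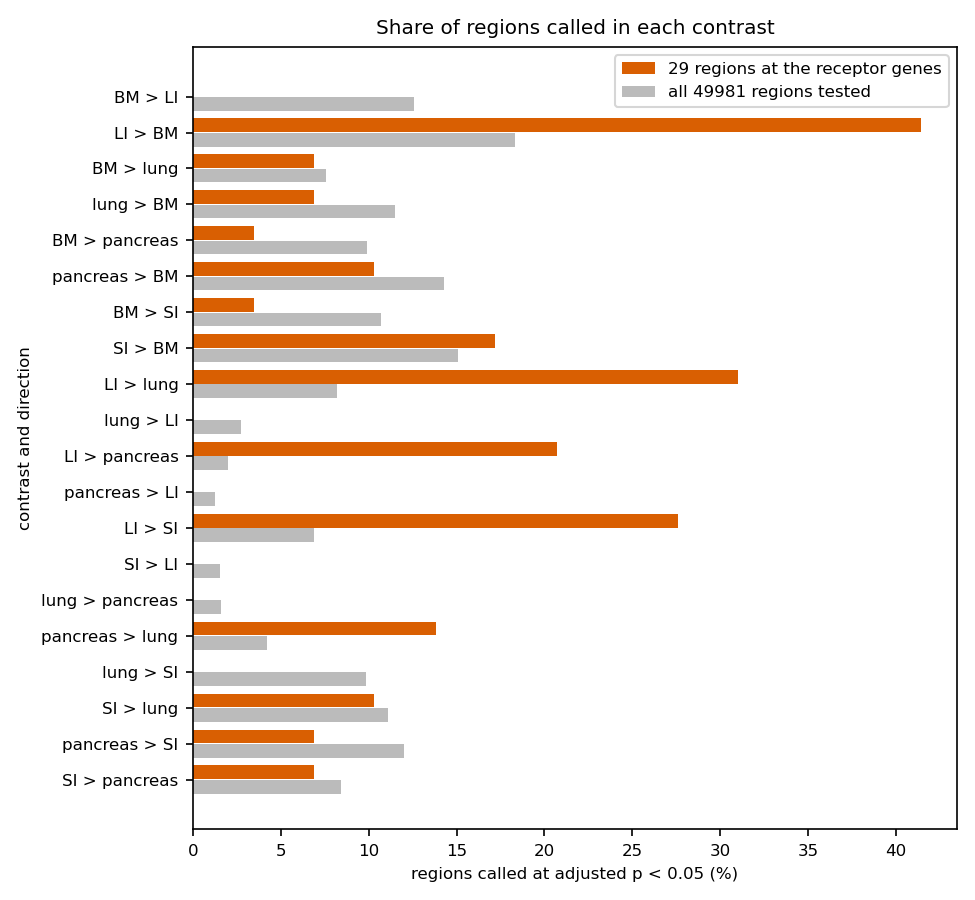
Share of regions called at an adjusted p under 0.05 in each contrast and direction, for the 29 regions at the receptor genes (orange) and for all 49981 tested regions (grey). The orange bars exceed the grey ones in all 4 contrasts for LI higher, from 20.7% against 2.01% over pancreas to 41.4% against 18.3% over BM, and are absent where LI is lower.

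A tissue-specific open chromatin region (TS OCR) was defined as higher in 1 tissue than in each of the other 4, and a commonly decreased peak as lower, each of the 4 contrasts having an unadjusted p under 0.05. Of the 29 regions, 9 were TS OCRs (11.3% of all regions were) and 5 were commonly decreased peaks (12.7% of all). The set held 8 TS OCRs of LI, or 27.6% of the 29, where 1.3% of all regions were TS OCRs of LI. The other was a TS OCR of pancreas (1.43% of all). Of the decreased peaks, 3 were lowest in BM (6.63% of all) and 2 in lung (1.72% of all). Neighbouring regions are not independent of each other, and with the adjusted p in each contrast 7 of the 14 remained, namely the *Klrg1* promoter regions, both *Klrd1* regions, both *Klrk1* regions, and the *Klrc1* region.

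The promoter of *Klrg1*, whose product is an inhibitory receptor for cadherins, was less accessible in BM than in any other tissue. The region 42 bp upstream of the TSS (chr6:122282615-122283136) held 3.57 and 2.76 CPM in BM, 15 and 20.7 in LI, 12.8 and 15.7 in SI, 9.57 and 13.1 in lung, and 22.4 and 16.9 in pancreas. Both BM libraries were below the other 8 without overlap, whereas LI overlapped with both pancreas and SI, and lung with SI. BM was lower by 2.5 ± 0.29 than LI, 1.84 ± 0.28 than lung, 2.64 ± 0.29 than pancreas, and 2.17 ± 0.29 than SI on the log2 scale, with adjusted p-values of 1.73e-05, 0.00025, 1.31e-05, and 6.11e-05. No contrast among the other 4 tissues was called, with adjusted p-values from 0.0853 (lung and pancreas) to 0.892 (LI and pancreas).

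The region 909 bp upstream (chr6:122283482-122284003) held 7.59 and 8.70 CPM in BM, 47.5 and 50.9 in LI, 22.4 and 49.7 in SI, 26.8 and 32.2 in lung, and 53.0 and 55.4 in pancreas. BM again lay below all other libraries, and the SI replicates were far apart, with 1 below lung and 1 among LI. The log2 difference of BM was -2.60 ± 0.29 from LI, -1.86 ± 0.29 from lung, -2.73 ± 0.29 from pancreas, and -2.15 ± 0.29 from SI, with adjusted p-values of 1.49e-05, 0.000254, 1.14e-05, and 7.35e-05. Both promoter regions were commonly decreased peaks of BM, and both remained so in each of 18 alternative settings. These changed the scaling, the test, or the libraries used, apart from a filter that removed no region.

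Within the gene, intron 3 held a region 8142 bp downstream of the TSS (chr6:122274405-122274978) with 11.3 and 18.4 CPM in BM, 15.4 and 16.7 in LI, 10.5 and 19.7 in SI, 11.2 and 9.52 in lung, and 27.2 and 24.9 in pancreas. Both pancreas libraries were the highest, above all others. The region was a TS OCR of pancreas and differed over the tissues (adjusted p = 0.0156), but after adjustment only lung was called lower than pancreas, with a log2 difference of -1.34 ± 0.29 (adjusted p = 0.0144). That tissue call was lost without BM replicate 1, LI replicate 1, LI replicate 2, pancreas replicate 1, pancreas replicate 2, or SI replicate 1, and with library size in place of TMM. The difference over the tissues was lost without lung replicate 2 (adjusted p = 0.0631), pancreas replicate 1 (0.109), or pancreas replicate 2 (0.0667).

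Beyond the 3′ end of *Klrg1* lay 5 more regions, at 12501 to 24641 bp downstream of the TSS. Unlike the promoter regions, none of the 5 was a TS OCR or a commonly decreased peak in the main fit. Both pancreas libraries were above all others at those 23663, 20025, and 13505 bp downstream, but not at those 12501 and 24641 bp downstream. The pancreas values were 23.4 and 17.2 CPM, 39.2 and 36.2, and 8.2 and 8.4, in that order. In some settings the regions at 23663 and 20025 bp were TS OCRs of pancreas. At none of the 5 were both BM libraries below all others. At the farthest (chr6:122257940-122258445) BM had 3.72 and 3.27 CPM against 3.49 to 9.42 elsewhere. Of these 5, 3 differed over the tissues, with adjusted p-values of 0.0344, 0.0345, and 0.0469. These 3 values lay near the threshold, and each was above it in at least 5 of the 16 settings with a test over the 5 tissues.

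**Figure D3:**
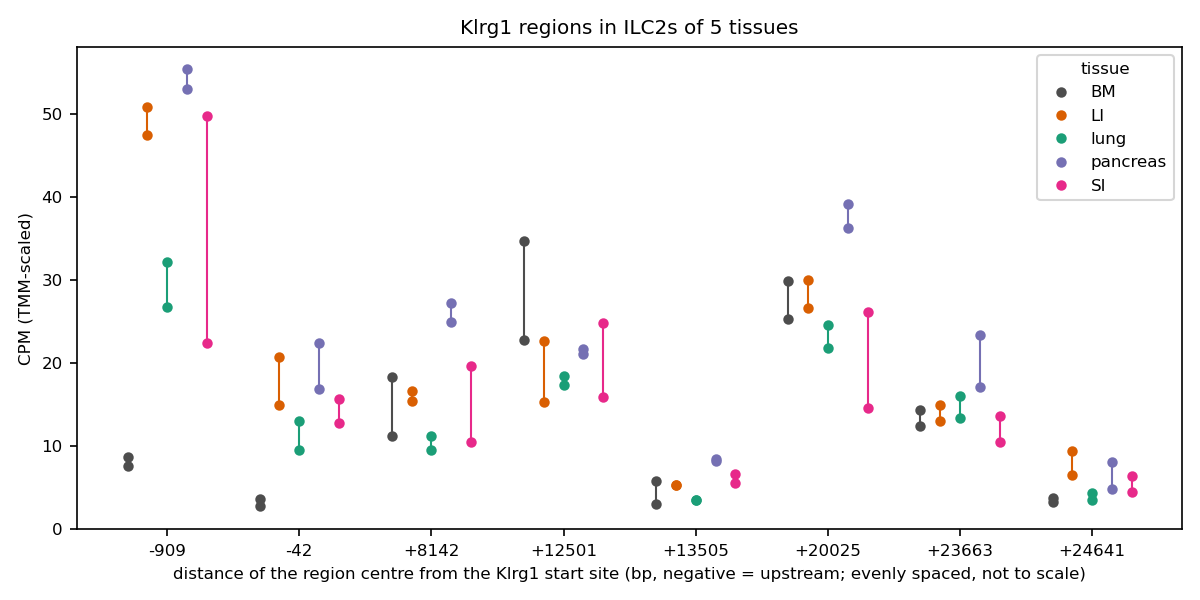
CPM of the 8 *Klrg1* regions, ordered by the distance of their centre from the TSS in bp and not drawn to scale. Each point is 1 library, coloured by tissue, and a line joins the 2 replicates. BM points lie at 2.76 to 8.70 CPM at the 2 promoter regions, below every other tissue, and among the other points at most of the downstream regions.

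Both LI libraries were above all others at the regions of *Klrd1*, *Klrc1*, and *Klrk1* and at 1 of the 3 regions of *Klre1*. *Klrd1* encodes CD94, which pairs with the NKG2A protein encoded by *Klrc1* to form an inhibitory receptor for a nonclassical MHC class I molecule. The *Klrc1* region lay 1602 bp upstream of its nearest TSS (chr6:129680295-129680855), in intron 1 of a longer predicted transcript, and held 3.92 and 2.53 CPM in BM, 23.8 and 34.9 in LI, 4.62 and 6.79 in SI, 4.35 and 2.62 in lung, and 5.65 and 2.91 in pancreas. The LI libraries were above all others by a wide margin, and the other 4 tissues overlapped in part. LI was higher by 3.19 ± 0.37 than BM, 3.09 ± 0.36 than lung, 2.74 ± 0.37 than pancreas, and 2.36 ± 0.35 than SI in log2, with adjusted p-values of 1.94e-05, 0.000117, 0.00105, and 0.000658. No other contrast at this region was called.

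Just beyond the 3′ end of *Klrd1*, the region 8034 bp downstream of its TSS (chr6:129599544-129600145) held 3.33 and 4.0 CPM in BM, 18.2 and 17.6 in LI, 2.07 and 3.17 in SI, 2.90 and 2.35 in lung, and 3.42 and 4.64 in pancreas. It gave the smallest p of the 29 regions (adjusted p = 5.05e-06), with log2 differences of LI over the other tissues from 2.17 ± 0.31 (pancreas) to 2.77 ± 0.31 (lung). The other *Klrd1* region, 4824 bp upstream of the TSS and inside intron 5 of *Klre1* (chr6:129583018-129583518), held 0.685 and 0.506 CPM in BM, 5.14 and 8.04 in LI, 1.49 and 1.99 in SI, 0.823 and 1.13 in lung, and 1.12 and 1.73 in pancreas. LI was again above all other libraries, by 1.92 ± 0.44 (over SI) to 3.47 ± 0.50 (over BM) in log2. The counts outside LI were low, at 11 to 57 per library. SI was also higher than BM at this region, by 1.55 ± 0.50 (adjusted p = 0.0301).

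*Klre1* encodes a receptor of the same family that pairs with other chains. Its region in intron 2 of a curated transcript (chr6:129581276-129581776) held 1.96 and 1.84 CPM in BM, 5.58 and 5.43 in LI, 1.88 and 2.23 in SI, 1.57 and 1.33 in lung, and 2.30 and 1.83 in pancreas. LI was higher than every other library, and the other tissues lay close together. After adjustment LI was called over BM (1.53 ± 0.39, adjusted p = 0.00746), lung (1.93 ± 0.39, 0.00442), and SI (1.42 ± 0.39, 0.0303) and not over pancreas (1.40 ± 0.40, 0.069). The region in its first exon, 112 bp downstream of a TSS (chr6:129559225-129559732), held 4.45 and 3.54 CPM in BM, 4.36 and 3.52 in LI, 5.06 and 2.96 in SI, 2.16 and 1.96 in lung, and 3.47 and 4.1 in pancreas. Lung was lowest there by the unadjusted p-values, but the region did not differ over the tissues (adjusted p = 0.162), and it kept the lung call in 8 of 18 settings. The third region, at 1.25 to 4.30 CPM, was not called (adjusted p = 0.181).

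*Klrk1* encodes the activating receptor NKG2D, which recognises stress-induced ligands. Its promoter region (chr6:129622375-129622954), centred 19 bp downstream of the TSS, held 8.22 and 8.61 CPM in BM, 18.0 and 26.2 in LI, 7.51 and 8.15 in SI, 12.7 and 11.6 in lung, and 11.9 and 10.4 in pancreas. The other *Klrk1* region, 14071 bp downstream of the TSS and beyond the 3′ end of the gene (chr6:129608326-129608898), held 8.81 and 8.61 CPM in BM, 15.2 and 16.1 in LI, 4.57 and 5.05 in SI, 8.59 and 7.70 in lung, and 8.83 and 5.07 in pancreas. At both, LI lay above every other library, and SI held the lowest values. The differences were smaller than at *Klrc1* and *Klrd1* in log2, at 0.87 ± 0.24 (over lung) to 1.50 ± 0.25 (over SI) at the promoter and at 0.85 ± 0.27 (over BM) to 1.70 ± 0.28 (over SI) at the other region. All 8 contrasts of LI passed the adjusted threshold, with p-values from 0.000571 to 0.0363. Without LI replicate 2 the promoter was no longer a TS OCR of LI, and the downstream region remained one.

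**Figure D4:**
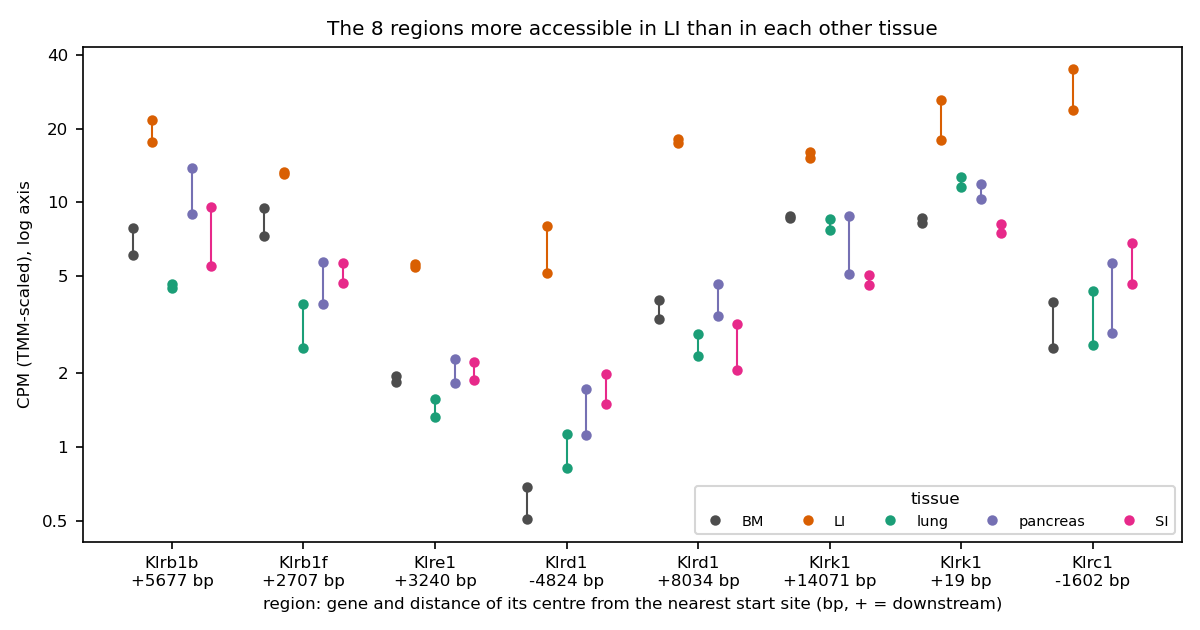
CPM on a log axis of the 8 regions that were TS OCRs of LI, labelled by gene and distance from the nearest TSS in bp. Each point is 1 library, coloured by tissue, and a line joins the 2 replicates. Both LI points stand above the other 8 in each column, most widely at *Klrc1* (23.8 and 34.9 against 2.53 to 6.79 CPM).

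The *Klrb1* genes encode NKR-P1 receptors, which bind ligands encoded by the *Clec2* genes beside them. *Klrb1b*, the gene of an inhibitory member whose ligand is the *Clec2d* product, had a TS OCR of LI in intron 2 (chr6:128820289-128820973), with 6.12 and 7.87 CPM in BM, 17.7 and 21.6 in LI, 5.49 and 9.61 in SI, 4.63 and 4.47 in lung, and 8.95 and 13.8 in pancreas. LI was above all others and lung below all others. Log2 differences of LI were 1.49 ± 0.30 over BM, 2.12 ± 0.31 over lung, and 1.38 ± 0.30 over SI (adjusted p-values 0.00167, 0.000447, and 0.00893), whereas that over pancreas, 0.81 ± 0.30, missed the adjusted threshold (0.179). The TS OCR call was lost without LI replicate 2 or pancreas replicate 1.

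The promoter region of *Klrb1b* (chr6:128826544-128827044) was highest in SI and LI. It held 0.832 and 1.66 CPM in BM, 3.14 and 5.52 in LI, 5.83 and 4.77 in SI, 0.392 and 0.497 in lung, and 1.18 and 3.13 in pancreas. LI and SI overlapped and did not pass the test against each other (-0.27 ± 0.47, adjusted p = 0.763), and LI replicate 1 was level with pancreas replicate 2. Lung was lowest, at 3.27 ± 0.55 below LI and 3.54 ± 0.54 below SI in log2 (adjusted p-values 0.00124 and 0.00024), and was a commonly decreased peak. The lung counts there were 10 and 18, and the lung call was lost without BM replicate 2 or lung replicate 1 and with DESeq2 on the 4 libraries of each contrast. The region in intron 1, at 3.02 to 13.9 CPM, differed over the tissues (adjusted p = 0.0136), with SI higher than lung by 1.59 ± 0.36 and than pancreas by 1.11 ± 0.36, and lost this without lung replicate 1 (0.071).

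*Klrb1f*, which encodes a member of the activating type, showed other orders of the tissues. At its promoter region (chr6:129049028-129049528), BM held 8.91 and 9.89 CPM, LI 5.75 and 5.00, SI 8.81 and 5.78, lung 3.22 and 2.24, and pancreas 1.88 and 3.02. BM was above every other library, though close to SI replicate 1, and lung and pancreas were below the rest. BM was higher than lung by 1.79 ± 0.33 and than pancreas by 1.98 ± 0.35, and SI was higher than lung by 1.42 ± 0.33 and than pancreas by 1.61 ± 0.35, with adjusted p-values of 0.001, 0.000882, 0.00498, and 0.00409.

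Intron 1 of *Klrb1f* held a TS OCR of LI (chr6:129051632-129052188) with 7.29 and 9.48 CPM in BM, 13.3 and 13.1 in LI, 4.67 and 5.64 in SI, 2.55 and 3.84 in lung, and 3.83 and 5.72 in pancreas. LI was highest and BM next, without overlap with the others. The log2 difference was 0.65 ± 0.29 between LI and BM (adjusted p = 0.101) and 1.35 ± 0.30 to 2.04 ± 0.31 between LI and the other tissues, all of which were called. The TS OCR call did not hold without BM replicate 1, LI replicate 1, or LI replicate 2, nor with library size scaling, the loess trend removed, or DESeq2 on the 10 libraries. The region with the highest mean CPM at the gene, 17993 bp downstream of the TSS (chr6:129066932-129067460), held 7.44 and 7.41 CPM in BM, 8.46 and 8.34 in LI, 5.87 and 6.55 in SI, 7.10 and 6.35 in lung, and 6.30 and 5.82 in pancreas and was not called (adjusted p = 0.462). Neither were the other 2 regions, both upstream of the gene (adjusted p-values 0.173 and 0.187).

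The regions of *Klrb1c*, which encodes the NK cell antigen NK1.1, did not pass the test. At the one with the smallest p and the highest CPM (chr6:128763965-128764600), BM held 49.0 and 49.3 CPM, LI 38.1 and 33.2, SI 42.4 and 51.1, lung 43.3 and 49.5, and pancreas 43.5 and 41.2. LI was lowest here, and the widest log2 difference, 0.47 ± 0.19 between BM and LI, missed the adjusted threshold (adjusted p = 0.0657). The 3 adjusted p-values over the tissues were 0.228, 0.32, and 0.879. None of the 3 regions was called over the tissues in any of 16 settings, although the contrast of BM and LI passed with DESeq2 on the 10 libraries (adjusted p = 0.035), without SI replicate 1 (0.0463), and without SI replicate 2 (0.046).

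At the promoter of *Clec2d*, the gene of the ligand of the *Klrb1b* product, accessibility was even over the tissues (chr6:129180461-129181000). It held 49.7 and 48.3 CPM in BM, 46.4 and 55.9 in LI, 45.5 and 42.9 in SI, 60.8 and 52.4 in lung, and 55.2 and 43.6 in pancreas. The 10 libraries lay between 42.9 and 60.8 CPM, with SI at the low and lung at the high end, and the widest log2 difference was 0.36 ± 0.19 between lung and SI (adjusted p = 0.206). The other *Clec2d* region, in exon 5 (chr6:129185993-129186516), held 1.37 and 2.03 CPM in BM, 4.80 and 3.74 in LI, 5.68 and 2.79 in SI, 3.45 and 3.12 in lung, and 3.12 and 5.93 in pancreas. BM was below all other libraries and the region was a commonly decreased peak of BM, although the test over the 5 tissues was not passed (adjusted p = 0.0845). The BM call was lost without BM replicate 1, either lung replicate, pancreas replicate 2, or SI replicate 1.

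Both LI libraries exceeded the other 8 at all 8 TS OCRs of LI, and 5 of the 8 calls held in each of the 18 settings. These 5 were the *Klrc1* region, both *Klrd1* regions, the *Klre1* intron region, and the downstream *Klrk1* region. The number of TS OCRs of LI was 5 without LI replicate 2 and 7 or 8 in the other 17 settings. More cells with an open region and a region more open in each cell cannot be told apart in these pooled cells. The profiles most like that of the downstream *Klrd1* region over the 10 libraries, by Pearson's r of log2 CPM, were regions nearest to *Gm11872* (r = 0.978), *2900057B20Rik* (0.966), and *Gm52109* (0.963). Those most like the *Klrc1* region were nearest to *Ust* (0.961), *Serinc5* (0.942), and *Gm7557* (0.933). These values describe a search over all regions and carry no test.

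The other genes of the NK gene complex were counted from a list of 32, of which 11 had a region. Of their 21 regions, 13 differed over the tissues (61.9%, against 44.2% of all regions), 6 were TS OCRs (11.3% of all), and 1 was a commonly decreased peak (12.7% of all). The promoter regions of *Klrc2* and *Klrc3*, which encode further NKG2 partners of CD94, followed the pattern of *Klrc1*. *Klrc2* (chr6:129660330-129660830) held 1.71 and 2.81 CPM in BM, 10.3 and 13.0 in LI, 2.02 and 3.52 in SI, 1.92 and 1.96 in lung, and 1.83 and 2.37 in pancreas (adjusted p = 5e-05). *Klrc3* (chr6:129643018-129643548) held 1.37 and 1.93, 10.2 and 10.6, 3.03 and 2.65, 2.04 and 2.18, and 0.766 and 2.05 CPM in the same order (adjusted p = 6.5e-05). The pair are 98.9% identical over 530 bases. The authors kept unique reads, so reads that fit both may be missing, and the counts are uncertain as separate values. No region of the 9 genes had another copy of at least 150 bases at 98% identity in the genome. Of the 29 regions, 7 had another copy of that length at a lower identity, among them all regions of *Klrb1c* and *Clec2d*. A further TS OCR of LI lay upstream of *Klra10*, and another near *Cd69*, the gene of an early activation antigen. At that *Cd69* region, 8657 bp downstream of the TSS (chr6:129266279-129267146), LI held 29.6 and 31.8 CPM and the other libraries 5.19 to 19.7. Near *Klrb1*, on the contrary, 2 regions were TS OCRs of SI, with 7.17 and 4.01 CPM in SI against 0.368 to 2.65 elsewhere at one of them (chr6:128731960-128732460).

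Among 10 adaptors and signalling partners, 9 had regions, and 18 of 36 regions differed over the tissues (50%), a share near the 44.2% of all regions. The promoter of *Hcst*, which encodes the NKG2D adaptor DAP10, was even, at 16.0 to 27.9 CPM (adjusted p = 0.131), and no region was assigned to *Tyrobp*, which encodes DAP12. *Zap70*, a kinase gene of the same list, had an intragenic region 1717 bp from the TSS that was a commonly decreased peak of BM. It held 5.97 and 6.58 CPM in BM against 14.6 to 56.8 elsewhere (adjusted p = 1.2e-05). Among 14 ligand genes, 8 had regions and 7 of 18 regions differed (38.9%), below the 44.2% of all regions. The promoter of *Cdh2*, the gene of N-cadherin, a ligand of KLRG1, held 0.979 and 1.24 CPM in BM, 9.15 and 8.91 in LI, 3.51 and 1.05 in SI, 6.59 and 6.65 in lung, and 6.66 and 6.47 in pancreas (adjusted p = 0.000217). The region was a commonly decreased peak of BM, although SI replicate 2 was as low as BM. At *H2-T23*, the gene of the CD94/NKG2A ligand, the region 392 bp downstream of the TSS differed over the tissues (adjusted p = 0.0152). It held 45.3 and 33.4 CPM in BM, 25.5 and 27.5 in LI, 51.8 and 40.9 in SI, 27.8 and 37.6 in lung, and 23.9 and 27.3 in pancreas. LI was thus as low as pancreas. The other *H2-T23* region was not called (adjusted p = 0.455).

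Since the receptor genes also serve NK cells, markers of other cell types were examined at their promoters. Of the 8 markers of NK cells and ILC1s, 3 (*Prf1*, *Gzmb*, and *Ccl5*) had a promoter region, and *Ncr1*, *Tbx21*, *Eomes*, *Ifng*, and *Itga2* had none. The sum over the 3 was 11.1 and 10.2 CPM in BM, 15.1 and 16.1 in LI, 18.9 and 20.8 in SI, 8.78 and 7.18 in lung, and 9.60 and 11.9 in pancreas. It was highest in SI and next highest in LI. *Prf1* held 9.0 and 9.40 CPM in SI and 6.89 and 7.56 in LI, *Ccl5* 6.79 and 6.72 in SI and 3.31 and 3.61 in LI, and *Gzmb* 3.08 and 4.70 in SI and 4.88 and 4.91 in LI. SI was thus the highest tissue at *Prf1* and *Ccl5*, and LI at *Gzmb*. None of the 5 ILC3 markers had a promoter region. The T cell sum (3 of 6 genes) was 5.80 to 13.9 CPM, with LI at 8.89 and 13.5, the B cell sum (2 of 5) 4.90 to 32.4 with the highest value in SI replicate 1, and the myeloid and mast cell sum (1 of 6) 15.3 to 24.6. The part of other cell types in the LI differences was not tested.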

How the data were processed

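The members and gene lists were chosen with earlier results of these data known. The authors mapped reads to mm10 with Bowtie2 2.2.9, kept unique reads, called peaks per library with MACS 2.1.1, kept the peaks of both replicates, merged them over tissues with HOMER, and counted reads with bedtools. The deposited values are raw counts per region and library, without normalization. Removal of duplicates or of mitochondrial or blacklisted reads, and a shift of reads for the transposase, are not given in the sources used here, so such reads may be part of the counts. Coordinates follow the table.

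Counts of the 49981 regions with at least 1 count were fitted in edgeR 4.0.16 (R 4.3.3) with TMM factors, a tissue factor, and 1 quasi-likelihood fit of all 10 libraries, with adjusted p-values called under 0.05. Samples were grouped by their labels. The paper calls the libraries of a tissue biological duplicates, so the replicate spread is that between 2 pools per tissue. The quasi-likelihood fit pooled this spread over the tissues and moderated it with that of the other regions. A p-value therefore does not measure the spread of its own region and tissues alone. PCR reads without molecular identifiers are not independent molecules, and the low counts of pancreas replicate 2 give it the least precision. RefSeq genes of GRCm38.p6 gave TSSs and classes, after chromosome names and lengths were checked. Copies were searched with blastn 2.17.0. All 9 genes are named, and values in every library are given for promoter regions, for each gene's regions with the smallest p and the highest CPM, and for TS OCRs and commonly decreased peaks. Regions shown for the other lists were chosen after their values were seen. The alternatives were other scalings (library size, DESeq2 size factors, a loess trend), DESeq2 1.42.0, fits of 4 libraries, a filter at 10 counts in 2 libraries, a replicate block, other member rules, an adjusted threshold, and each library left out.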

Additional observations from a re-analysis of the deposited data

How the results depend on the processing

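The main counts were 17 regions differing over the tissues, 60 calls over the 10 contrasts, and 14 TS OCRs or commonly decreased peaks. With the adjusted p in each contrast the last count was 7. With members limited to regions centred inside a listed gene, 9 of 13 regions differed (69.2%), and with curated transcripts alone 19 of 44 (43.2%), no longer above the 44.2% of all regions. The other scalings, DESeq2, and the fits of 4 libraries gave 15 to 17, 53 to 67, and 11 to 15. Leaving out 1 library gave 13 to 19 (with 31.4% to 50.3% of all regions differing), 48 to 83, and 10 to 16, and a tissue left with 1 library was assumed to vary like the others. With the replicate block the counts were 17, 68, and 14. Deviations of libraries with the same number correlated at -0.218 to 0.196. Weak correlations cannot show whether such libraries share mice or a day, so any pairing by number is unknown. The filter at 10 counts removed no region, so its agreement with the main fit, counted among the 16 and 18 settings, was fixed in advance. For the 29 regions at their contrast with the smallest p, 232 values with all libraries held 8 that lost and 4 that gained a call, and 290 values without 1 library held 21 and 4. None of these changed direction. Scaling by library size alone moved the median log2 difference of all regions, most between lung and pancreas (from -0.01 to 0.24 for lung minus pancreas) and for pancreas minus SI from -0.06 to -0.30. Of the 17 regions that differed over the tissues, 12 did so in each of 16 settings, and of the 14 tissue calls 7 held in each of 18. Replicates number 2 per tissue, which limits every value, and counts below 60 per library outside LI limit the upstream *Klrd1* region.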
